A study of Homo sapiens with 10 samples.

Results

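The genes described here encode the HSP70 chaperones HSPA1A, HSPA1B, HSPA1L, HSPA2, HSPA6, HSPA8 and HSPA9 and their HSP110 relatives HSPH1, HSPA4 and HSPA4L. They were taken by family name, not by a cut on measured values, although earlier results of these data were known, and are 10 of the 63187 genes in the count table. RNA-seq measured their transcripts in U2OS, a cell line from a human osteosarcoma, and each of 3 groups had 2 libraries. The heat-shocked knockdown carried a reagent against YTHDC1, a nuclear reader of N6-methyladenosine in RNA, and was heat-shocked. The heat-shocked control carried a control reagent and was heat-shocked, and the unheated control carried the control reagent without heat. All were grown in DMEM with serum at 37 °C, and the labels HS and NHS are read here as with and without the heat stress of the study's title. Sample titles write the reagents as sh and column names write them as si, so the kind of knockdown reagent is uncertain. Its temperature, length and recovery are not stated in the labels. There was no unheated knockdown group, so an effect of the knockdown on a gene's level and one on its heat response cannot be told apart.

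HSP70 proteins bind exposed hydrophobic stretches of unfolded proteins and release them in a cycle driven by ATP. J-domain proteins bring clients and speed ATP hydrolysis, and nucleotide exchange factors, the HSP110 proteins among them, remove ADP so that the client is let go. Unfolded proteins in heated cells free the transcription factor HSF1, which binds heat shock elements, repeated GAA and TTC units, upstream of the inducible family members. Other members are made at all times and serve the cytosol and nucleus (HSPA8) or the mitochondrial matrix (HSPA9).

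The libraries held between 13252370 and 15500743 counts, of which the 10 genes took between 0.335% and 1.75%. YTHDC1 stood at 121 and 118 CPM in the heat-shocked knockdown, 268 and 258 CPM in the heat-shocked control and 213 and 225 CPM in the unheated control, so both knockdown libraries had less of the targeted transcript. CPM relates a count to the library size after TMM scaling, which sets the bulk of genes equal between libraries. Of 10 mesenchymal and bone markers 9 averaged at least 1 CPM, with VIM at 1471 CPM and COL1A1 at 1528 CPM. COL1A2 and ALPL averaged only 1.01 and 2.62 CPM, and TWIST1 was at 0 in every library. Summed epithelial markers, 7 genes, lay at 92.3 to 98.4 CPM in the knockdown, 71.1 to 79.5 CPM in the heat-shocked control and 54.5 to 57.7 CPM in the unheated control. Of these 7, 5 averaged at least 1 CPM, with CLDN4 at 55.1 CPM and EPCAM at 10.4 CPM, while KRT19 did not exceed 0.211 CPM. Summed blood markers, also 7 genes, lay at 4.78 to 6.89 CPM in the knockdown, 18.8 to 23.0 CPM in the heat-shocked control and 15.5 to 16.3 CPM in the unheated control. Among them 2 averaged at least 1 CPM, LCP1 at 12.2 CPM and HBA2 at 1.56 CPM, with CD3E and HBB at 0. The part of these shifts in the results below was not tested. In bulk RNA, fewer cells of a type and less RNA per cell cannot be told apart.

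The stretches just upstream of these genes differ in how many exact matches to heat shock element letters they hold. In the RefSeq promoter table (GRCh38.p14) the 250 bases before each start that table uses were searched on both strands for a 2-unit element, GAANNTTC or TTCNNGAA, and for a 3-unit one, the same letters extended by NN and a further GAA or TTC, which holds overlapping 2-unit matches. A 2-unit match was found in 11.6% of 35116 such windows and a 3-unit match in 0.441%. The 6 windows shown are those of the stress-induced HSPA6, HSPA1A and HSPA1B, of the constitutive HSPA8, and, for contrast, of HSPH1 and the mitochondrial HSPA9, each 5′ to 3′ on its gene's strand with matches in capitals. The table's starts of HSPA8 and HSPA2 lie inside the gene spans given below, so these windows precede a start within the gene and not its outermost end.
HSPA6, chr1:161524290-161524539, plus strand: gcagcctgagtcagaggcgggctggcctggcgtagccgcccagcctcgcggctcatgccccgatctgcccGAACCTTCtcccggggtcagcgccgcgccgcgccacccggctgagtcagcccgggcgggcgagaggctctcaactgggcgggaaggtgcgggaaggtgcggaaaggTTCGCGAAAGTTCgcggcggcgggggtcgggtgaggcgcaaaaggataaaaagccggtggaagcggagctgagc
HSPA1A, chr6:31815293-31815542, plus strand: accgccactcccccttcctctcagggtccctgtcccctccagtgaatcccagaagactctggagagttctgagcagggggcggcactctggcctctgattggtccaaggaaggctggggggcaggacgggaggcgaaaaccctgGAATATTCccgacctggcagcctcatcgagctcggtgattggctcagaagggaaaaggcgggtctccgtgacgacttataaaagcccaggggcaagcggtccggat
HSPA1B, chr6:31827488-31827737, plus strand: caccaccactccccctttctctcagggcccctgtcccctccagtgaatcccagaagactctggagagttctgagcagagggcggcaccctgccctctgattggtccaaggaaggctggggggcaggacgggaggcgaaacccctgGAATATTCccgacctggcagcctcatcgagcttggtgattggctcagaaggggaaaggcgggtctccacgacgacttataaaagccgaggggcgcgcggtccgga
HSPA8, chr11:123062137-123062386, minus strand: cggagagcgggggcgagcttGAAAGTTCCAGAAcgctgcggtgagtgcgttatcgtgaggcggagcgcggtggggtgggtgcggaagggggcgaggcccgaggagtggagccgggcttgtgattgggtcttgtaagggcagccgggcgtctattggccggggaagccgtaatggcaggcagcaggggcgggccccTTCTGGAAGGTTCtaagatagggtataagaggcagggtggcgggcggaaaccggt
HSPH1, chr13:31162389-31162638, minus strand: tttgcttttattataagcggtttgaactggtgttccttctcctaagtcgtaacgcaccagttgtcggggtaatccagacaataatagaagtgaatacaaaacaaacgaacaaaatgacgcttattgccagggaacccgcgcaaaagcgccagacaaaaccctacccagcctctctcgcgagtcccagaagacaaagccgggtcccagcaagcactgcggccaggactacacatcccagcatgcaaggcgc
HSPA9, chr5:138575402-138575651, minus strand: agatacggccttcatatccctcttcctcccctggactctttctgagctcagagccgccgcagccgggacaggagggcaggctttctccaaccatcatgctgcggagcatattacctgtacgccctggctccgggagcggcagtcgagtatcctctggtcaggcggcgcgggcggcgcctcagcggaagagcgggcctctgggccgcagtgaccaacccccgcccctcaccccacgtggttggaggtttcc

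HSPA6 had 3 matches to the 2-unit element, of which an overlapping pair made 1 match to the 3-unit element, and the nearest ended 61 bases before the start. HSPA8 had 4 matches that paired into 2 matches to the 3-unit element, the nearest 42 bases before the start. HSPA1A and HSPA1B each had 1 match, GAATATTC, 98 and 97 bases before the start, in windows that were 93.6% identical (235 identical positions, 14 mismatches and 2 gaps in the alignment). HSPA1L lies head to head with HSPA1A, with 259 bases between their RefSeq starts, so its window holds the same match read from the other strand. The windows of HSPH1, HSPA9, HSPA4 and HSPA2 held none of these letters, and 1 of 3 windows of HSPA4L held 1 match. A match describes letters and not a bound site, and a window without one says only that these letters are not in it.

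Heat shock in control cells was compared first. Of the 9 genes that could be tested, 8 were higher in the heat-shocked control than in the unheated control at an adjusted p under 0.05, and 0 were lower. That is 88.9% of those tested, while 20.6% of all 17290 tested genes were called higher, 23.3% lower and 43.9% in either direction. Scaled by library size alone, the calls over all genes numbered 2932 higher and 5092 lower, where TMM gave 3559 and 4033, and the same number of members, 8, was called higher. The same 8 were also at least 2-fold higher, which held for 5.82% of all genes. One of the 9, HSPA2, passed the filter on low counts only through the heated groups, so its being tested already required a difference. Without it 7 of 8 were higher. The median log2 fold change was 4.22 over the 9 genes, which is the value of HSPA2 itself, 4.11 without HSPA2, and -0.03 over all genes. Members of this family are textbook heat shock genes, so these counts describe the response more than they test it.

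**Figure D1:**
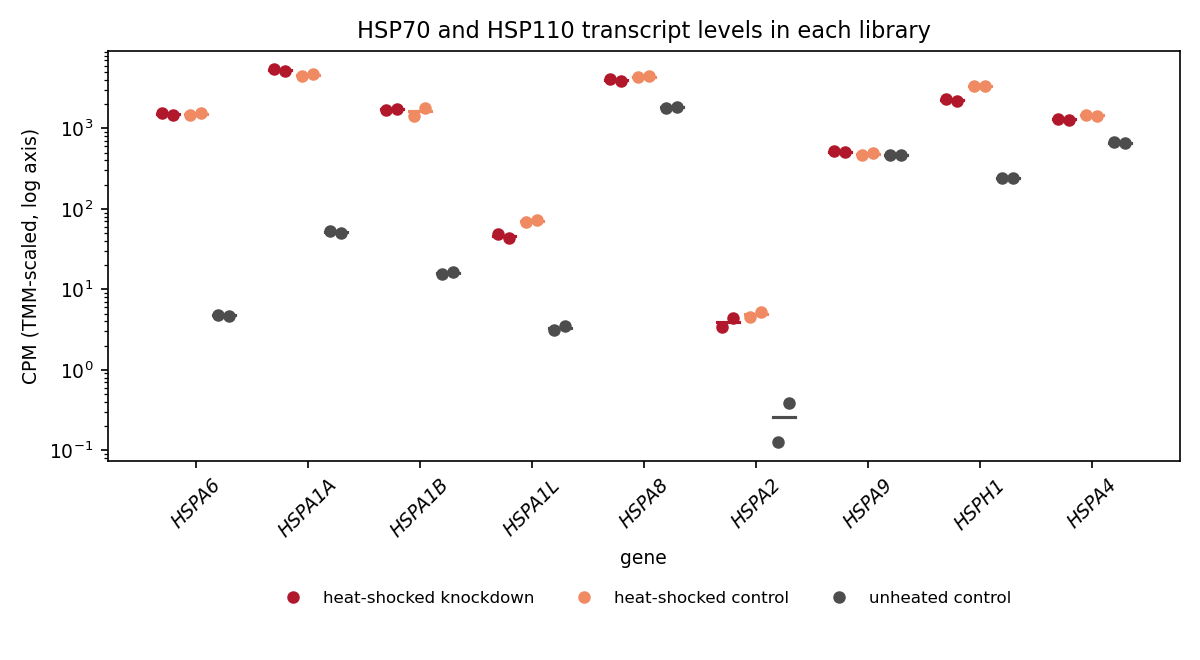
Level of each family member in each library, in CPM on a log axis, with a bar at the mean of each group of 2 libraries; from left to right for each gene are the heat-shocked knockdown, the heat-shocked control and the unheated control. HSPA6 stands between 1448 and 1559 CPM in the heated groups and under 5 CPM in the unheated control, while HSPA9 stays between 471 and 523 CPM throughout; HSPA4L, with 1 count in all, is not drawn.

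HSPA6 (ENSG00000173110, chromosome 1, 161524540 to 161526894 on GRCh38), an HSP70 found in humans but lacking in mice and made almost only under severe stress, changed most among the 9. It had 1460 and 1536 CPM in heat-shocked controls, against 4.79 and 4.69 CPM in unheated controls, where these values came from 76 and 73 counts. Both unheated libraries lay close together and far below every heated one. The log2 fold change was 8.30 ± 0.08 SE (315-fold, n = 2 per group, edgeR adjusted p = 1.74e-28). Per unit of length, HSPA6 averaged 2245 TPM in the heat-shocked control and 7.36 TPM in the unheated control, which took it to place 39 of the 63187 genes by mean TPM in the heat-shocked control and place 10375 in the unheated control. TPM divides counts by the deposited gene length and scales each library to the same sum.

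HSPA1A (ENSG00000204389, chromosome 6, 31815543 to 31817942) and HSPA1B (ENSG00000204388, chromosome 6, 31827738 to 31830254) encode the major stress-induced HSP70 and are nearly identical neighbours. HSPA1A had 4479 and 4801 CPM in heat-shocked controls, against 52.5 and 49.5 CPM in unheated controls. HSPA1B had 1431 and 1813 CPM in heat-shocked controls, against 15.6 and 16.6 CPM in unheated controls. Of both genes the groups stood far apart, and the heat-shocked libraries of HSPA1B were the more uneven pair. Their log2 fold changes were 6.51 ± 0.06 (91-fold, edgeR adjusted p = 2.37e-28) and 6.66 ± 0.17 (101-fold, edgeR adjusted p = 4.63e-06). HSPA1A took 76.3% and 74.4% of the counts of the pair in the knockdown, 75.8% and 72.6% in the heat-shocked control and 77.1% and 74.9% in the unheated control. This split differed as much within a group as between groups. No label says how reads that fit both copies were counted, so the summed pair is the safer quantity, and its log2 fold change with heat was 6.54 ± 0.07 (93.3-fold, edgeR adjusted p = 4.92e-28).

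HSPA1L (ENSG00000204390, chromosome 6, 31809619 to 31815283, minus strand), a relative known chiefly from spermatids, was low but clearly changed. It had 68.9 and 73.5 CPM in heat-shocked controls, against 3.15 and 3.47 CPM in unheated controls, with a log2 fold change of 4.42 ± 0.11 (21.5-fold, edgeR adjusted p = 2.20e-20). Since it is similar in sequence to HSPA1A and starts beside it, and the strand setting of the counting is not given, reads of the neighbours may be among its counts. Per 100 counts of HSPA1A plus HSPA1B it had 1.17 and 1.11 counts in heat-shocked controls and 4.63 and 5.25 in unheated controls. The ratio was thus not constant.

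HSPA2 (ENSG00000126803, chromosome 14, 64535905 to 64543237), which is needed for male meiosis in mice, was close to silence. It had 59 and 73 counts in heat-shocked controls (4.54 and 5.23 CPM), against 2 and 6 counts in unheated controls (0.126 and 0.385 CPM). The heated libraries were well above both unheated ones, whose own values rest on very few counts. The ratio of summed counts per library size was 18.3 (exact 95% interval 9.03 to 43.3, counting error only). Since the gene entered the test only through the heated groups, its fitted log2 fold change of 4.22 ± 0.37 is given as a value with no p. Without unheated control replicate 1 it was 3.63, and without unheated control replicate 2 it was 5.18.

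HSPA8 (ENSG00000109971, chromosome 11, 123057489 to 123062462, minus strand), the constitutive HSC70 of the cytosol, started high and changed far less. It had 4348 and 4462 CPM in heat-shocked controls, against 1804 and 1840 CPM in unheated controls, a log2 fold change of 1.27 ± 0.05 (2.42-fold, edgeR adjusted p = 6.22e-17). Its window, printed above, holds 4 matches to the 2-unit element, where that of HSPA6 holds 3 and that of HSPA1A holds 1.

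HSPA9 (ENSG00000113013, chromosome 5, 138553756 to 138575401, minus strand), mortalin, which pulls proteins into the mitochondrial matrix, did not pass the test. It had 471 and 492 CPM in heat-shocked controls, against 473 and 472 CPM in unheated controls, and the groups overlapped. The log2 fold change was 0.03 ± 0.04 (95% interval -0.06 to 0.12, edgeR adjusted p = 0.636), and with library size alone as the scaling it was -0.04.

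Among the HSP110 genes, HSPH1 (ENSG00000120694, chromosome 13, 31134973 to 31162388, minus strand), the stress-induced exchange factor HSP105, had 3402 and 3320 CPM in heat-shocked controls, against 239 and 245 CPM in unheated controls. The 2 libraries of each group were within a few percent of each other. HSPA4 (ENSG00000170606, chromosome 5, 133052013 to 133106449), the constitutive exchange factor APG-2, had 1470 and 1424 CPM in heat-shocked controls, against 679 and 654 CPM in unheated controls. The log2 fold changes were 3.80 ± 0.05 for HSPH1 (13.9-fold, edgeR adjusted p = 1.28e-25) and 1.12 ± 0.04 for HSPA4 (2.17-fold, edgeR adjusted p = 4.36e-16). HSPA4L (ENSG00000164070, chromosome 4, 127781796 to 127840733), the exchange factor APG-1 best known from testis, had 0 counts in 5 libraries and 1 count in unheated control replicate 2. A count of 0 allows up to 3 counts, or 0.194 to 0.226 CPM before TMM scaling in these libraries (counting error only), so HSPA4L was not detectable at this depth and was not tested.

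The shares of the genes in the family's transcript pool differed after heat. Summed over the 10 genes, levels were 16673 and 17786 TPM in the heat-shocked control and 2227 and 2271 TPM in the unheated control, a 7.66-fold larger pool. HSPA8 made up 18.6% ± 0.540 of that pool in the heat-shocked control and 61.1% ± 0.685 in the unheated control (SD, n = 2 each). HSPA1A plus HSPA1B made up 52.7% ± 1.65 in the heat-shocked control and 4.49% ± 0.107 in the unheated control, and HSPA6 made up 13.0% ± 0.152 in the heat-shocked control and 0.327% ± 0.00590 in the unheated control. HSPA4 took 5.85% in the heat-shocked control and 21.3% in the unheated control, and HSPA9 took 1.01% in the heat-shocked control and 7.85% in the unheated control. In order of mean TPM the heat-shocked control ran HSPA1A (6814), HSPA8 (3207), HSPA1B (2275), HSPA6 (2245), HSPH1 (1414), HSPA4 (1007), HSPA9 (174), HSPA1L (91.0) and HSPA2 (3.13). The libraries of HSPA1B and HSPA6 overlapped there, and those of the other neighbours did not. The order in the unheated control was HSPA8 (1374), HSPA4 (480.1), HSPA9 (177), HSPH1 (105), HSPA1A (77.6), HSPA1B (23.4), HSPA6 (7.36), HSPA1L (4.39) and HSPA2 (0.171), with no overlap between neighbours. The fold of the pool, the shares and the heated order depend on length. Deposited lengths were 4849 bases for HSPA8, 5075 for HSPA4, 8391 for HSPH1 and 9782 for HSPA9. Those of HSPA1A, HSPA1B and HSPA6 were 2404, 2517 and 2355 bases. TPM thus places the longer genes lower against the shorter ones than CPM does. Whether the deposited lengths match the transcripts made was not tested. By CPM, with no division by length, the pool was 5.35-fold larger in the heat-shocked control than in the unheated control. The pair then made up 35.7% in the heat-shocked control and 2.05% in the unheated control. HSPA8 made up 25.1% in the heat-shocked control and 55.6% in the unheated control. By mean CPM the heat-shocked control ran HSPA1A (4640), HSPA8 (4405), HSPH1 (3361), HSPA1B (1622), HSPA6 (1498) and HSPA4 (1447), with HSPA9, HSPA1L and HSPA2 last as before. HSPH1 was thus above HSPA1B and HSPA6 by CPM and below both by TPM. The libraries of HSPA1B, HSPA6 and HSPA4 overlapped each other by CPM in the heat-shocked control. The unheated order was the same by CPM.

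**Figure D2:**
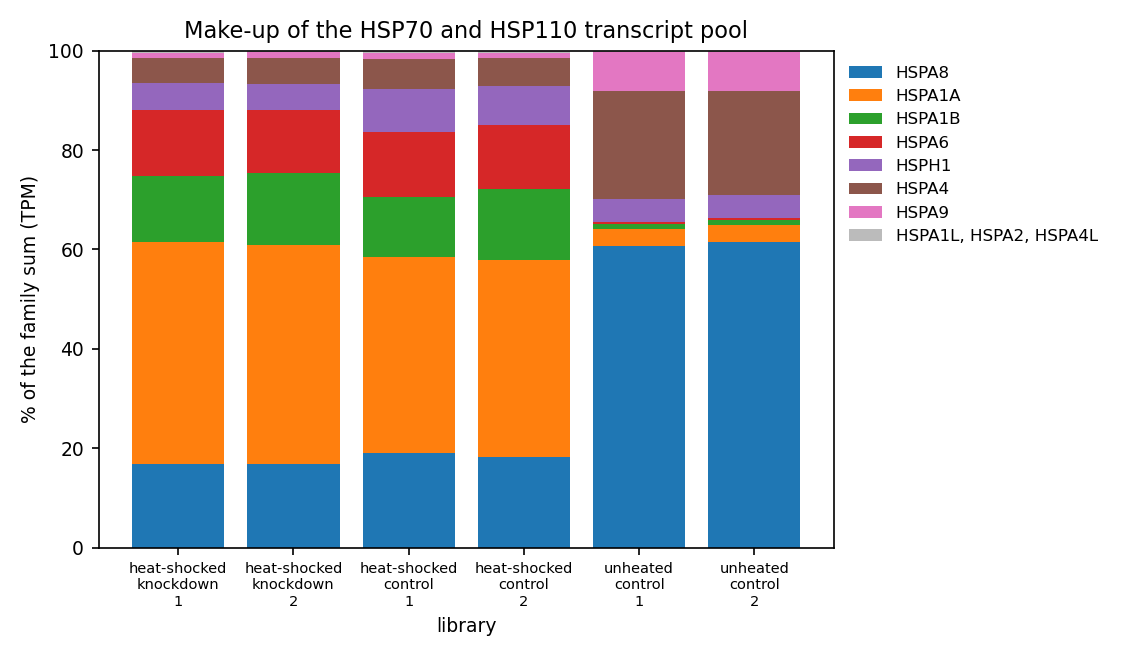
Share of each gene in the family's summed TPM, in percent, 1 stacked bar per library, for the heat-shocked knockdown, the heat-shocked control and the unheated control; HSPA1L, HSPA2 and HSPA4L are drawn together. HSPA8 is the largest part of both unheated libraries (61.1% on average) and HSPA1A the largest of all 4 heated ones.

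The knockdown was compared with the control within heat-shocked cells. Of the 9 tested genes 5 passed, or 55.6%, while 54.5% of all tested genes were called in either direction, so the family's share of calls lay near the background. HSPA1A was called higher, and HSPA1L, HSPH1, HSPA4 and HSPA8 were called lower, against 27.4% of all genes higher and 27.2% lower. The median log2 fold change was -0.13 over the 9 genes and -0.0042 over all genes. The changes were much smaller than those with heat, and 0 of the 9 were called and at least 2-fold higher, where 6.12% of all genes were.

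HSPH1 and HSPA1L had the largest called differences. HSPH1 had 2308 and 2166 CPM in the knockdown, against 3402 and 3320 CPM in the heat-shocked control, and the groups did not overlap. It fell by 33.4% (log2 fold change -0.59 ± 0.05, 95% interval -0.68 to -0.49, edgeR adjusted p = 1.02e-10). HSPA1L had 48.2 and 43.3 CPM in the knockdown, against 68.9 and 73.5 CPM in the heat-shocked control, and it fell by 35.7% (log2 fold change -0.64 ± 0.07, edgeR adjusted p = 3.26e-08). Both kept the direction and the call in every fit that left out 1 library, with log2 fold changes of -0.64 to -0.54 for HSPH1 and -0.72 to -0.56 for HSPA1L.

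HSPA4, the constitutive HSP110, had 1309 and 1274 CPM in the knockdown, against 1470 and 1424 CPM in the heat-shocked control, without overlap. It fell by 10.7% (log2 fold change -0.16 ± 0.04, edgeR adjusted p = 0.00274). HSPA8 had 4120 and 3920 CPM in the knockdown, against 4348 and 4462 CPM in the heat-shocked control, and it fell by 8.74% (log2 fold change -0.13 ± 0.05, edgeR adjusted p = 0.0161). The call of HSPA8 was lost without knockdown replicate 2 (-0.09, edgeR adjusted p = 0.0791) or replicate 2 of the heat-shocked control (-0.12, edgeR adjusted p = 0.0817), so it rests on those libraries.

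Of the stress-induced HSP70 genes HSPA6, HSPA1A and HSPA1B, 1 was called in the knockdown, and it was higher. HSPA1A had 5403 and 5127 CPM in the knockdown, against 4479 and 4801 CPM in the heat-shocked control, and was higher by a log2 fold change of 0.18 ± 0.05 (1.13-fold, 95% interval 0.08 to 0.28, edgeR adjusted p = 0.00241). Without heat-shocked control replicate 1, the lower of that pair, the log2 fold change was 0.13 and the call was lost (edgeR adjusted p = 0.0661). HSPA1B had 1682 and 1762 CPM in the knockdown, against 1431 and 1813 CPM in the heat-shocked control. Both knockdown values lay between the control values, and the log2 fold change of 0.09 ± 0.12 did not pass (95% interval -0.22 to 0.40, edgeR adjusted p = 0.588). It was -0.08 when heat-shocked control replicate 1 was left out, and 0.26 and called when replicate 2 of that group was (edgeR adjusted p = 3.06e-04). For the summed pair the log2 fold change was 0.16 ± 0.05 (1.12-fold, edgeR adjusted p = 0.0103). Leaving out heat-shocked control replicate 1 took it to 0.08 (edgeR adjusted p = 0.281).

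HSPA6 had 1559 and 1448 CPM in the knockdown, against 1460 and 1536 CPM in the heat-shocked control, and the groups overlapped. The log2 fold change was 0.01 ± 0.05 (edgeR adjusted p = 0.935), with either sign depending on the setting, and its 95% interval of -0.09 to 0.10 leaves out the size of the fall of HSPH1. HSPA9 had 523 and 502 CPM in the knockdown, against 471 and 492 CPM in the heat-shocked control, and did not pass (log2 fold change 0.09 ± 0.04, edgeR adjusted p = 0.0873). With library size alone as the scaling (0.10, edgeR adjusted p = 0.0434) and without knockdown replicate 2 (0.12, edgeR adjusted p = 0.0190) the call was made. HSPA2 had 3.45 and 4.38 CPM in the knockdown, against 4.54 and 5.23 CPM in the heat-shocked control, and did not pass (log2 fold change -0.32 ± 0.22, 95% interval -0.78 to 0.14, edgeR adjusted p = 0.234).

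**Figure D3:**
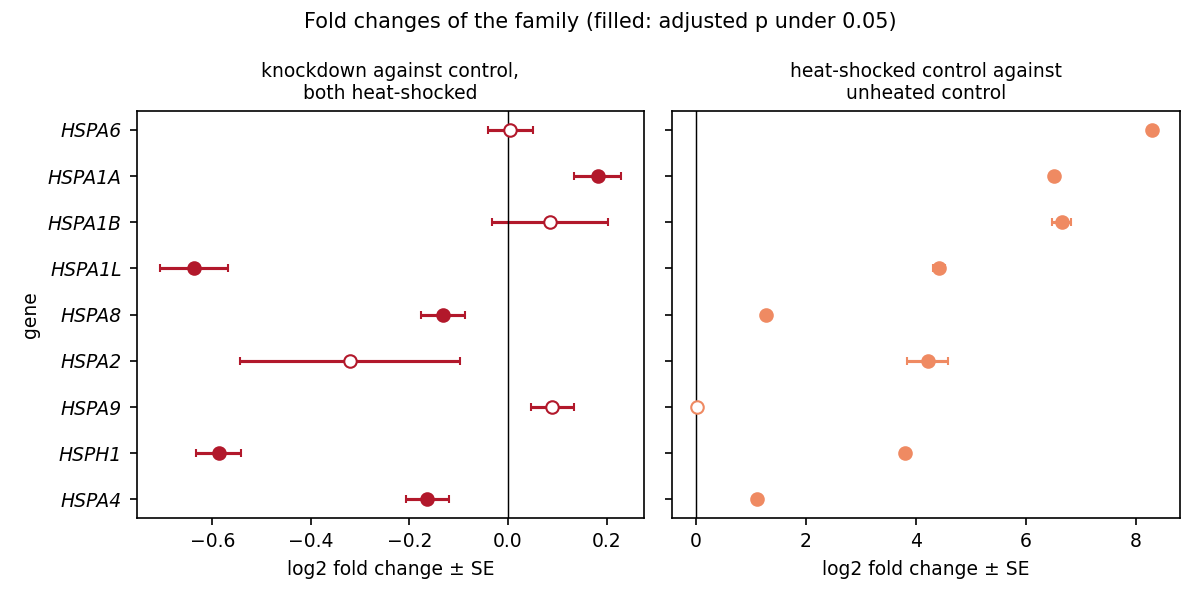
Log2 fold change of each tested member with its standard error, for the knockdown against the control in heat-shocked cells (left) and for the heat-shocked against the unheated control (right), each on its own axis; filled points passed an adjusted p of 0.05, and HSPA2 was tested only through the heated groups. On the left the values lie between -0.64 for HSPA1L and 0.18 for HSPA1A, and on the right between 0.03 for HSPA9 and 8.30 for HSPA6.

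**Figure D4:**
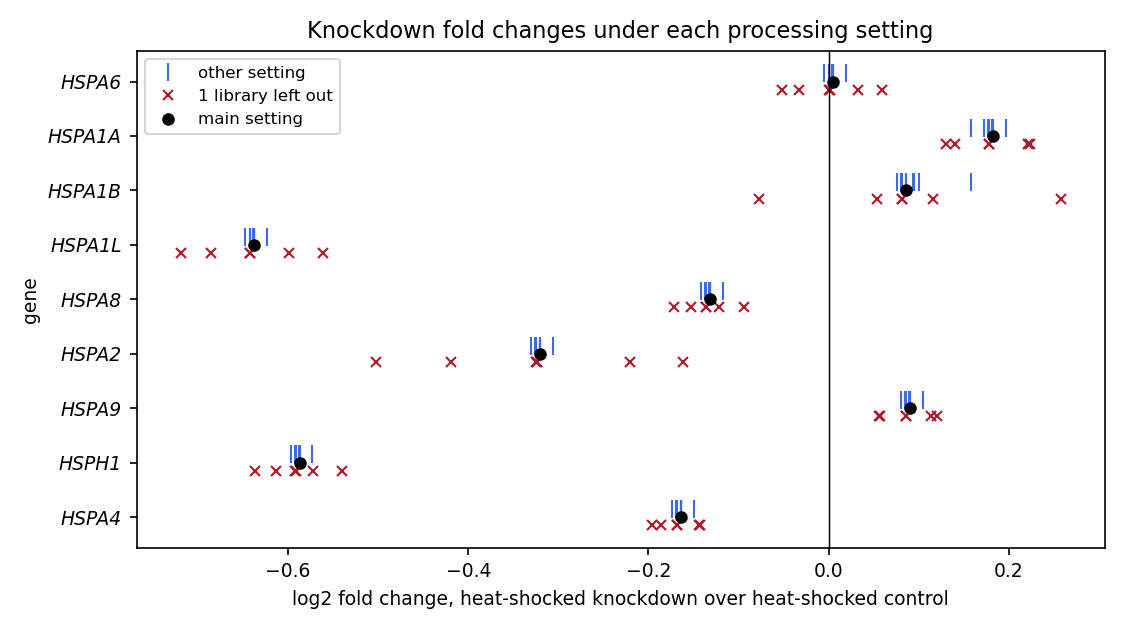
Log2 fold change of the heat-shocked knockdown over the heat-shocked control for each tested member: the main value (black point), each other processing setting (blue tick) and each fit without 1 library (red cross). For HSPA1A and HSPA1B the summed pair is among the ticks, at 0.16. HSPH1, HSPA1L, HSPA4, HSPA8 and HSPA2 stay below 0 throughout, while the crosses of HSPA1B run from -0.08 to 0.26.

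Relative to each other, HSP110 and cytosolic HSP70 transcripts also differed between the groups. The summed TPM of HSPH1 and HSPA4 per 100 TPM of cytosolic HSP70 (HSPA1A, HSPA1B, HSPA1L, HSPA2, HSPA6 and HSPA8) was 11.99 and 11.92 in the knockdown and 17.5 and 15.7 in the heat-shocked control. In the unheated control it was 40.2 and 38.5. The ratio was thus lower in both heated groups than without heat, and lower again in the knockdown, with no overlap between any of the groups. Its size depends on the deposited lengths. By CPM it was 28.22 and 27.96 in the knockdown, 41.3 and 37.4 in the heat-shocked control and 48.8 and 46.9 in the unheated control. The mean ratio of the heat-shocked control was 0.421 of the unheated one by TPM and 0.822 of it by CPM, while that of the knockdown was 0.721 of the heat-shocked control by TPM and 0.714 of it by CPM. With 2 libraries against 2 the two-sided exact permutation test gave p = 0.333 for the knockdown against the heat-shocked control and for the heat-shocked against the unheated control, the smallest p this design allows. HSPH1 alone was at 6.19 and 6.04 in the knockdown, 10.2 and 9.16 in the heat-shocked control and 7.07 and 7.12 in the unheated control, all per 100 TPM of cytosolic HSP70. HSPA4 alone was at 5.80 and 5.88 in the knockdown, 7.29 and 6.50 in the heat-shocked control and 33.2 and 31.4 in the unheated control. With heat in control cells, the ratio of HSPA4 was thus lower in both libraries and that of HSPH1 higher in both.

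The cytosolic HSP70 sum itself was 16034 and 15104 TPM in the knockdown and 14046 and 15224 TPM in the heat-shocked control, which overlap. The two-sided exact permutation test gave p = 0.667, but it cannot go below 0.333 in this design and so cannot decide on a difference. Over all 10 genes the pool was 18149 and 17086 TPM in the knockdown, against 16673 and 17786 TPM in the heat-shocked control, a ratio of 1.02. By CPM that ratio was 0.947, so the direction of the pool's small difference depended on length. HSPA1A plus HSPA1B made up 58.3% ± 0.472 of the pool in the knockdown and 52.7% ± 1.65 in the heat-shocked control (SD, n = 2 each). HSPH1 made up 5.40% ± 0.0896 of it in the knockdown and 8.22% ± 0.531 in the heat-shocked control. In the knockdown the order of mean TPM was HSPA1A (7823), HSPA8 (2961), HSPA1B (2442), HSPA6 (2280.5), HSPH1 (952), HSPA4 (909), HSPA9 (187), HSPA1L (59.2) and HSPA2 (2.54). By TPM, HSPH1 lay above HSPA4 within each knockdown library, at 992 against 930 in replicate 1 and 912 against 888 in replicate 2. The TPM ranges of these genes thus overlapped there and did not in the heat-shocked control. This closeness depends on the deposited lengths. By CPM the knockdown had 2308 and 2166 for HSPH1 and 1309 and 1274 for HSPA4, without overlap. By mean CPM HSPH1 (2237) stood between HSPA8 (4020) and HSPA1B (1722) in the knockdown.

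HSPA1L was also lower in the knockdown relative to its neighbours, at 0.680 and 0.629 counts per 100 counts of HSPA1A plus HSPA1B, against 1.17 and 1.11 in the heat-shocked control. HSPA7, annotated as a pseudogene beside HSPA6 and similar to it, was set against HSPA6 in the same way. Per 100 counts of HSPA6 it had 1.359 and 1.504 counts in the knockdown, 1.34 and 1.55 in the heat-shocked control and 14.5 and 12.3 in the unheated control. This ratio was level between the heated groups and higher without heat, where HSPA7 had only 0.694 and 0.578 CPM. Reads of HSPA6 and transcripts of HSPA7 itself cannot be told apart by it. The 19 rows named as pseudogenes of HSPA5, HSPA8 and HSPA9 held at most 27 counts in any library.

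**Figure D5:**
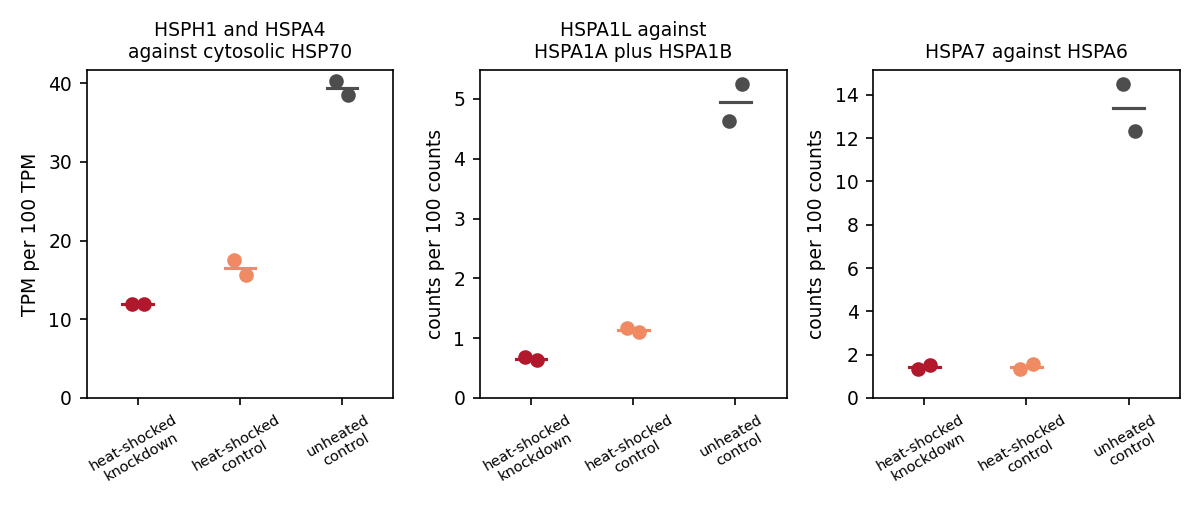
Ratios within the family in each library (points) with the mean of 2 libraries (bars), for the heat-shocked knockdown, the heat-shocked control and the unheated control: HSPH1 plus HSPA4 per 100 TPM of cytosolic HSP70 (left), HSPA1L per 100 counts of HSPA1A plus HSPA1B (middle) and HSPA7 per 100 counts of HSPA6 (right). The left and middle ratios are lowest in the knockdown, with means of 11.95 and 0.655, while the right one is alike in the heated groups, with means of 1.43 and 1.45.

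Against the unheated control, the heat-shocked knockdown had all 9 tested genes higher, where 31.1% of all genes were called higher and 62.2% in either direction. At least 2-fold higher were 7 of the 9, or 77.8%, and 9.45% of all genes. HSPA2, which passed the filter only through the heated groups, is among them, and without it the counts were 8 of 8 and 6 of 8. This comparison shares its libraries with those above, so its values only stand beside them. The log2 fold change was 8.31 for HSPA6, 6.69 for HSPA1A and 6.74 for HSPA1B. It was 3.79 for HSPA1L, 3.90 for HSPA2, 1.14 for HSPA8, 3.21 for HSPH1 and 0.95 for HSPA4. That of HSPA2 was 3.31 without unheated control replicate 1 and 4.85 without unheated control replicate 2. As multiples, HSPH1 was 9.24-fold above the unheated control in the knockdown and 13.9-fold above it in the heat-shocked control, and HSPA1L was 13.8-fold above it in the knockdown and 21.5-fold above it in the heat-shocked control. HSPA9 passed narrowly (0.12 ± 0.04, edgeR adjusted p = 0.0222). Its call was lost with library size alone (0.06, edgeR adjusted p = 0.211), with no filter on low counts (0.11, edgeR adjusted p = 0.0614), and without knockdown replicate 1 (0.08, edgeR adjusted p = 0.119), unheated control replicate 1 (0.11, edgeR adjusted p = 0.145) or unheated control replicate 2 (0.11, edgeR adjusted p = 0.169).

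Partners of the family were read from fixed lists, of which each gives the 2 highest and the 2 lowest called genes where there were as many. Over all genes 20.6% were called higher and 23.3% lower with heat, and 27.4% higher and 27.2% lower in the knockdown against the heat-shocked control, so the counts of these short lists are descriptions. Among 7 other genes of the HSP70 superfamily 6 were tested. With heat 3 were called higher and 0 lower, namely HSPA7 at a log2 fold change of 5.08 ± 0.20, which also passed the filter only through the heated groups, HSPA5, the HSP70 of the endoplasmic reticulum, at 0.23 ± 0.04 and HSPA13, a microsomal relative, at 0.20 ± 0.05. HSPA13 was no longer called with library size alone (0.13, edgeR adjusted p = 0.0583), without heat-shocked control replicate 1 (0.15, edgeR adjusted p = 0.0977) or without unheated control replicate 2 (0.16, edgeR adjusted p = 0.0973). With library size alone HSPA12A and HSPA14 were called lower (-0.17 and -0.25). In the knockdown against the heat-shocked control 0 were higher and 2 lower. These were HSPA12A, a distant relative, at -0.49 ± 0.06 and HYOU1, the HSP110 relative of the endoplasmic reticulum, at -0.32 ± 0.05. HSPA5 had 1295 and 1220 CPM in the knockdown, 1198 and 1170 CPM in the heat-shocked control and 1001 and 1014 CPM in the unheated control, and the knockdown did not pass against the heat-shocked control (0.09 ± 0.04, edgeR adjusted p = 0.105). It was called without knockdown replicate 2 (0.13, edgeR adjusted p = 0.0106) and with limma voom (adjusted p = 0.0484).

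Of 13 J-domain proteins of classes A and B, 9 were higher and 1 lower with heat, where 43.9% of all genes were called. DNAJA4 led them at a log2 fold change of 5.88 ± 0.06, followed by DNAJB1, the main cytosolic partner of stress-induced HSP70, at 4.02 ± 0.05, and DNAJB12, of the endoplasmic reticulum membrane, was lower at -0.19 ± 0.06. That call was lost without any 1 of the 4 libraries compared (edgeR adjusted p between 0.0503 and 0.0760). In the knockdown 5 were higher and 6 lower, where 54.5% of all genes were called. With the replicate block 4 were higher and 6 lower, since DNAJA3 was no longer called (0.14, edgeR adjusted p = 0.0545). DNAJA3 also lost its call with the DESeq2 Wald test (adjusted p = 0.235) and limma voom (adjusted p = 0.0516). The same held with no filter on low counts and with only the 2 groups compared. Without knockdown replicate 1 its log2 fold change was 0.10. The number higher lay between 4 and 6 over all settings. DNAJB5 was at 1.25 ± 0.08 and DNAJB11, of the endoplasmic reticulum lumen, at 0.40 ± 0.05, while DNAJB12 was at -0.60 ± 0.07 and DNAJB9, also of the endoplasmic reticulum, at -0.57 ± 0.10. The median of the list was 0.38 with heat and -0.05 in the knockdown.

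Of 12 exchange factors and adaptors, 6 were higher and 2 lower with heat, where 43.9% of all genes were called. BAG3, which links HSP70 to autophagy, was at a log2 fold change of 4.06 ± 0.05 and STIP1, which bridges HSP70 and HSP90, at 1.27 ± 0.04. STUB1, the ubiquitin ligase CHIP, was lower at -0.39 ± 0.05 and the exchange factor BAG1 at -0.25 ± 0.06, a call lost with the DESeq2 Wald test (adjusted p = 0.0572). With library size alone 4 of the list were higher and 3 lower. In the knockdown 4 were higher and 6 lower, where 54.5% of all genes were called, with SIL1, the exchange factor of HSPA5, at 1.26 ± 0.10 and BAG1 at 0.33 ± 0.06, and with BAG5 at -0.61 ± 0.08 and BAG2 at -0.51 ± 0.07. The list's median was 0.18 with heat and -0.21 in the knockdown. Of the 3 heat shock factors measured, HSF2 was lower with heat (-0.67 ± 0.12), and HSF2 (0.69 ± 0.12) and HSF1 (0.27 ± 0.05) were higher in the knockdown. With library size alone HSF1 was also called lower with heat (-0.12) and HSF4 higher in the knockdown (0.43).

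Outside the family, the genes whose profiles over the 6 libraries lay nearest to a member's were found by the distance between centred log2(CPM + 1) values, among 11566 genes of at least 5 CPM on average. For HSPA1A they were DNAJA4 at a distance of 1.05, ZFAND2A at 2.46 and TNFSF14 at 2.80, where the median over all genes was 7.63. The same 3 genes were nearest to HSPA6, at 2.68, 4.13 and 4.49, with a median of 9.31. HSPH1 had PLPPR5 at 0.122, the small heat shock protein gene CRYAB at 0.164 and LINC00877 at 0.491, with a median of 4.13. HSPA8 had MRPS6 at 0.0734, IRF8 at 0.0861 and SPR at 0.0987, with a median of 1.51. These distances describe 6 libraries in 3 groups, and the added 1 CPM shrinks the changes of genes of low level. PLPPR5, for example, had a fitted log2 fold change with heat of 5.38 where HSPH1 had 3.80, despite its small distance.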

How the data were processed

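Whole-number read counts per gene, deposited by the authors in 1 table for 6 RNA-seq libraries and not normalized, were the starting point. The deposited gene length in bases, as the file header names it, was used for TPM only. The submitters' processing notes name, without roles, featureCounts 2.0.2, HISAT2 2.2.1, Trim Galore 0.6.7, MACS2, FastQC 0.11.8 and DESeq2 1.36.0, and the build GRCh38. For strandedness and multiply mapping reads no setting is given in those notes. The 4 methylated RNA immunoprecipitation samples were not analysed here.

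Symbols were found for 62666 of 63187 genes, and the 521 without one held at most 0.0698% of a library's counts. Genes were kept by filterByExpr (minimum count 10) and tested with edgeR 4.0.16 in R 4.3.3 (quasi-likelihood F test, robust, TMM, all 6 libraries in 1 fit with 3 residual degrees of freedom), with Benjamini-Hochberg adjustment over 17290 genes and a threshold of 0.05. Every adjusted p is from that fit unless another is named. DESeq2 1.42.0, limma voom 3.58.1 and other settings were alternatives. The common biological coefficient of variation was 3.69%. Libraries of a group differed beyond sampling noise (chi-square per gene 1.55 to 3.54), so none was counted as a copy. No label places them in separate cultures, so the p-values cover only differences between these samples, possibly technical ones.

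The members, the partner lists and the markers were chosen with earlier results of these data known, all members were named, and partners were named as the 2 highest and 2 lowest called genes per list. Promoter sequences are RefSeq's, on GRCh38.p14. Intervals and floors cover counting error only where so marked.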

Additional observations from a re-analysis of the deposited data

How the results depend on the processing

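Of 423 fold changes of members and of the summed pair recomputed under the alternatives, 403 kept their direction and their side of the threshold, 9 lost the call, 4 gained it and 7 changed sign. The fit with the pair summed was scored against HSPA1A and again against HSPA1B. In the knockdown its gain for HSPA1B is the value of the sum, 0.16, and not of HSPA1B itself. All that changed sign had not passed the test. For HSPA9 with heat the log2 fold change was -0.042 with library size alone and between -0.0034 and 0.057 with 1 library left out. For HSPA6 in the knockdown against the heat-shocked control it was -1.06e-04 with the DESeq2 Wald test, -0.0049 with no filter on low counts, and between -0.052 and 0.059 with 1 library left out. For HSPA1B it ran between -0.077 and 0.26 with 1 library left out. The cause was not tested. The number of members called stayed at 8 with heat when any library was left out, and lay between 4 and 5 in the knockdown and between 8 and 9 in the knockdown against the unheated control. Replicate numbers did not pair the libraries (correlations of deviations of -0.0281, 0.0578 and -0.0615 over 11574 genes), and with the replicate block 8, 5 and 9 members were called. Library size in place of TMM moved the median of all genes with heat to -0.10. Leaving 1 library in a group assumes that it varies like the others. The sum with libraries left out, the counts without HSPA2 and the ratio of HSP110 to HSP70 by CPM were chosen after seeing the data. Depth limits HSPA2 and HSPA4L. Transcripts were measured, not proteins.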
